A study of Mus musculus with 9 samples.

Results

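The genes described here are 10 epithelial defence genes of the mouse duodenum: the regenerating lectins Reg1, Reg3a, Reg3b, Reg3g and Reg4, the flagellin-binding protein gene Lypd8, the oxidase gene Duox2 with its maturation factor Duoxa2, the acute-phase gene Saa1, and Nos2. They were taken by name, without a cut-off on measured values, though with earlier results of these data known, and all 10 were found among the 54532 genes of the deposited table. Of these, 9 passed the expression filter and 1, Saa1, did not. Duodenal RNA had been sequenced from 5 mice with mutant Pla2g12b and 4 WT mice, all male C57BL/6 animals kept on chow for 3 months. Pla2g12b encodes a secreted phospholipase A2 family member that lacks enzymatic activity and takes part in lipoprotein lipidation; the series title names its substitution C129Y, but the labels of single samples name neither the allele of the mutant mice nor whether it was homozygous, and the samples are whole duodenum, not sorted epithelium.

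REG3 proteins are C-type lectins that enterocytes and Paneth cells secrete into the mucus. REG3G is best known for killing Gram-positive bacteria and for keeping bacteria away from the villus surface, and transcription of Reg3b and Reg3g in mice depends on Toll-like receptor signalling and on IL-22 acting through STAT3. DUOX2, brought to the apical membrane by DUOXA2, makes hydrogen peroxide at the epithelial surface and is likewise induced by microbes. LYPD8 binds flagella and hinders motile bacteria, NOS2 makes nitric oxide, and SAA1 is a retinol-binding acute-phase protein. Reg1 is also a major transcript of the exocrine pancreas, which lies against the duodenum, and Reg4 is found in enteroendocrine and goblet cells.

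Total counts were 16245982 to 17959658 per mutant library and 16119639 to 24009157 per WT library. The libraries were not evenly spaced: mutants 2 and 3, mutants 4 and 5, WT 1 and 2, and WT 3 and 4 formed close pairs, with a chi-square per degree of freedom of 2.24 to 3.24. In the 12 remaining pairs of same-genotype libraries it was 26.5 to 61.6. The labels number them as separate mice, and what joins the pairs is not given. The p-values from 9 libraries treat them as independent and are too small if they are not, so the results are also given with the close pairs summed (3 mutant and 2 WT units). Pla2g12b itself, which the study altered, had 134, 102, 107, 129 and 132 CPM (reads per gene after scaling all libraries to one size) in mutants 1 to 5, and 103, 104, 77.5 and 75.6 CPM in WT 1 to 4. The call at a log2 fold change of 0.42 (SE 0.13, adjusted p = 0.023 by edgeR's quasi-likelihood test) was lost with pairs summed (adjusted p = 0.138). The transcript was still made in the mutant libraries, so its level does not check the labels. In bulk tissue, fewer cells of a type and less RNA per cell cannot be told apart.

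The start regions of 5 genes that varied widely between libraries and are described most closely are shown first, from RefSeq on GRCm38.p6. Each runs from 250 bases before the start that RefSeq annotates to 50 after it, 5′ to 3′ on the gene's own strand. Capitals mark matches to any of 3 motifs searched on both strands: the STAT-type TTCNNNGAA, a kappaB motif, and the TATA element TATAAA. Reg3b is read at chr6:78370635-78370934 (+), Reg3g at chr6:78468825-78469124 (-), Reg1 at chr6:78425733-78426032 (+), Duox2 at chr2:122298178-122298477 (-) and Duoxa2 at chr2:122298650-122298949 (+).
Reg3b: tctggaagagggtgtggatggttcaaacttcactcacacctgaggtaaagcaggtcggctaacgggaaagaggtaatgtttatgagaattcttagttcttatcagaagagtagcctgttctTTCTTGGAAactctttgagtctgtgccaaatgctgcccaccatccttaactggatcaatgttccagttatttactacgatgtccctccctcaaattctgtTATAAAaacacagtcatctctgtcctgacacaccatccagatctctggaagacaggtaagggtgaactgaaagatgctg
Reg3g: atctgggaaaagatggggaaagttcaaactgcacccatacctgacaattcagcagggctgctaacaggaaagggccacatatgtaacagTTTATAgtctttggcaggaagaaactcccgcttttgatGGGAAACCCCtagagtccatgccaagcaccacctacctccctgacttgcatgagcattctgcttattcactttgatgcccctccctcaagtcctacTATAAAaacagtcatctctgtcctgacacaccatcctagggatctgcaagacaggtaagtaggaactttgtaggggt
Reg1: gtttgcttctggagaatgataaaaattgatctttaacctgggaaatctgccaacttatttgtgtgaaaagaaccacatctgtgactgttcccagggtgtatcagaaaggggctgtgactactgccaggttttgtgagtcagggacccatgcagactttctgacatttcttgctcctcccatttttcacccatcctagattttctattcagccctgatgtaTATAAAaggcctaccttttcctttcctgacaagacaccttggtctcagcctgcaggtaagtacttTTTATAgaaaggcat
Duox2: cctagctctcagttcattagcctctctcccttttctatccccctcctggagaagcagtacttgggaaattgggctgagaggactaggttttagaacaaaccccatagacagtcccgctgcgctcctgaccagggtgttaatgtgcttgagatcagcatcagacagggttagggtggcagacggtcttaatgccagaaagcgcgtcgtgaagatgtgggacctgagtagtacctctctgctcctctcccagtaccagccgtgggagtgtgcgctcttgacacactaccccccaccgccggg
Duoxa2: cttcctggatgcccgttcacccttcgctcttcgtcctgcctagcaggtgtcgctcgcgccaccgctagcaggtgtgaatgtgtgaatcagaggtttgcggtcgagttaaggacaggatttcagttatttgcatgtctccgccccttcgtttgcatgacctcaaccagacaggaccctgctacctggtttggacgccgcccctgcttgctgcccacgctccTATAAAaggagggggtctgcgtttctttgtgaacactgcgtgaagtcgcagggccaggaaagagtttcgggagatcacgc

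The Reg3b window held a STAT-type match at position -129, and the Reg3g window a kappaB match at -123. TATAAA lay at -29 in Reg3b, -27 in Reg3g, -30 in Reg1 and -30 in Duoxa2, where position 1 is the annotated start. Further matches to TATAAA on the other strand lay at -161 in Reg3g and 36 in Reg1. Of 32851 mouse promoter windows of this length, 8.3% held the STAT-type motif, 8.46% the kappaB motif and 13.6% TATAAA. The windows of Duox2, Reg4, Reg3a, Saa1 and Lypd8 held none of the 3, and Nos2 was not matched. Reg3b and Reg3g were the most alike of the 7 windows of REG and DUOX genes: 69.0% of their alignment columns were identical, and they shared a run of 29 bases around the start. All the other pairs of these windows were identical in 47.4% to 55.2% of columns. A match describes letters only, and no binding was measured.

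Across the 10 genes, the genotype difference did not go one way. In the edgeR test over all 15416 genes, Reg3b was called higher and Reg4 lower in mutants at an adjusted p under 0.05, while the other 7 tested genes missed the threshold. The background is high: 32.5% of all tested genes were called, 15.4% higher and 17.1% lower in mutants. The log2 fold change was above 0 for 6 of the 9 tested genes and below 0 for 3, with a median of 0.43 against 0.01 over all tested genes. With close pairs summed, only Reg4 was called among the 9, where 9.01% of all tested genes were called (2.23% higher, 6.78% lower). With the pair as a random block in voom, Reg3b and Reg3g were called higher and Reg1 and Reg4 lower, where 18.3% of all tested genes were called (7.6% higher, 10.7% lower). Reg3b and Reg4 alone of the 9 had no overlap between the groups. Over all tested genes, 14.4% had every mutant library above every WT library and 16.5% had every mutant library below.

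**Figure D1:**
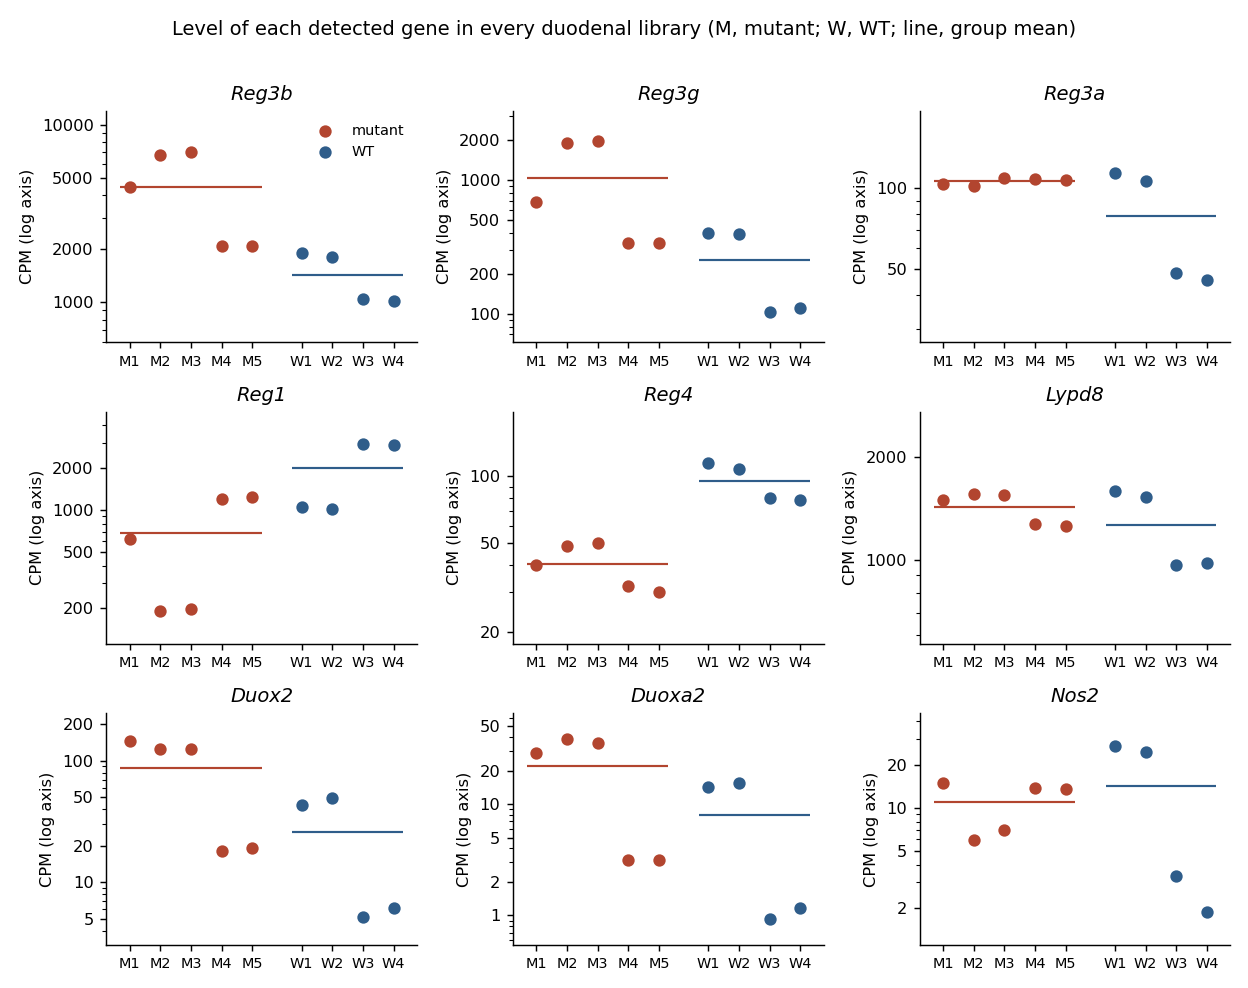
Level of each of the 9 tested genes in every library, in CPM on log axes, with mutant libraries (M1 to M5) left of WT libraries (W1 to W4) and a line at each group mean. Reg3b lies higher and Reg4 lower in every mutant library, and the other genes overlap between the genotypes.

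Reg3b, a secreted lectin that binds Gram-negative bacteria, was the most abundant of these transcripts per length in mutants. It had 4464, 6768, 7069, 2082 and 2065 CPM in mutants 1 to 5, and 1896, 1791, 1038 and 1012 CPM in WT 1 to 4. Every mutant library was above every WT library, but mutants 4 and 5 exceeded WT 1 and 2 only narrowly. The means were 4490 ± 2425 CPM in mutants and 1434 ± 475 CPM in WT (SD, n = 5 and 4). The log2 fold change was 1.65 (SE 0.45, adjusted p = 0.0211). By reads per kilobase, Reg3b ranked 6 to 21 among all genes in mutant libraries and 31 to 57 in WT libraries. With pairs summed the fold change was the same, 1.65 (SE 0.55), but its adjusted p was 0.129. The call was also lost without WT 3 (adjusted p = 0.0592), WT 4 (0.0578), both of them (log2 fold change 1.28, adjusted p = 0.154) or mutants 2 and 3 (1.01, adjusted p = 0.077).

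Reg3g, its neighbour and near relative, had a similar but not identical order of libraries. It had 691, 1897, 1950.3, 339 and 338 CPM in mutants 1 to 5, against 402, 399, 104 and 111 CPM in WT 1 to 4. Mutants 2 and 3 were far above all others, mutants 4 and 5 lay below WT 1 and 2, and WT 3 and 4 were lowest. The log2 fold change of 2.04 (SE 0.76, adjusted p = 0.0742) was larger than that of Reg3b and missed the threshold. It was past it by DESeq2 (adjusted p = 0.0153), without mutants 4 and 5 (log2 fold change 2.59, adjusted p = 0.0397), or with no robust dispersion (adjusted p = 0.0354) or the pair as a random block (0.0315). Without mutants 2 and 3 it was 0.85 (adjusted p = 0.334), with quality weights in voom 1.26 (0.0864), and with pairs summed the adjusted p was 0.345.

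The balance of the pair of lectins was compared within each library, which no scaling can change. Reg3g had 0.155, 0.28, 0.276, 0.163 and 0.164 reads per read of Reg3b in mutants 1 to 5, and 0.212, 0.223, 0.1 and 0.109 in WT 1 to 4. The log2 ratio averaged -2.32 ± 0.436 in mutants and -2.73 ± 0.611 in WT (SD, n = 5 and 4), a difference of 0.41 (2-sided exact permutation over libraries, p = 0.286, where the smallest possible is 0.00794). In each genotype the ratio was higher in the libraries with more Reg3b among the close pairs, so Reg3g varied more than Reg3b.

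Reg3a, a further lectin of the same family, was steady in mutants and split in WT. It had 104, 102, 109, 108 and 107 CPM in mutants 1 to 5, and 114, 106, 48.5 and 45.6 CPM in WT 1 to 4. The mutant libraries lay close to WT 1 and 2, and only WT 3 and 4 stood lower. Over all libraries the log2 fold change was 0.43 (SE 0.27, adjusted p = 0.258). It was 1.17 without WT 1 and 2 (adjusted p = 2.21e-05) and -0.05 without WT 3 and 4 (adjusted p = 0.634), so the choice of WT pair set its size and direction. With pairs summed the adjusted p was 0.481.

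Reg1, a pancreatic and intestinal lectin linked to epithelial growth and repair, ran opposite to Reg3b and Reg3g. It had 623, 190.1, 198, 1207 and 1229 CPM in mutants 1 to 5, and 1043, 1010.3, 2937 and 2908 CPM in WT 1 to 4. Mutants 2 and 3, highest for Reg3g, were lowest for Reg1, and WT 3 and 4, lowest for Reg3g, were highest. Mutants 4 and 5 were above WT 1 and 2. The log2 fold change was -1.52 (SE 0.68, adjusted p = 0.127), was called without mutants 4 and 5 (-2.56, adjusted p = 0.0459) or with the pair as a random block (-1.73, adjusted p = 0.0395), and was -0.58 without WT 3 and 4 (adjusted p = 0.653). Summing the pairs gave an adjusted p of 0.393.

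Pancreatic acinar RNA was far lower in every mutant library than in any WT library, while Reg1 overlapped between the genotypes. All 20 acinar marker genes were called lower in mutants, also with pairs summed, and their sum was 191 to 404 CPM in mutants and 37343 to 78101 CPM in WT. Over all tested genes, 17.1% were called lower, or 6.78% with pairs summed. Most of the mutant sums came from Zg16, at 161 to 373 CPM, a gene also on the goblet list, so acinar RNA in mutants was lower than these sums. The chymotrypsinogen gene Ctrb1 had 0 to 5 reads in each mutant library, against 139118 to 309048 in each WT library, and the lipase gene Pnlip 0 to 3 reads against 61527 to 140489. Reg2, the pancreatic paralog next to Reg1, had 0 reads in all 5 mutant libraries, which at 3 reads allows up to 0.191 CPM, and 132, 121, 317 and 319 CPM in WT 1 to 4. Reg1, by contrast, kept 3344 to 21293 reads in each mutant library. Among WT libraries, the level in WT 3 and 4 over that in WT 1 and 2 was 2.85 for Reg1, 2.52 for Reg2 and 2.07 for the acinar sum. The part of acinar RNA in the Reg1 difference was not tested.

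**Figure D2:**
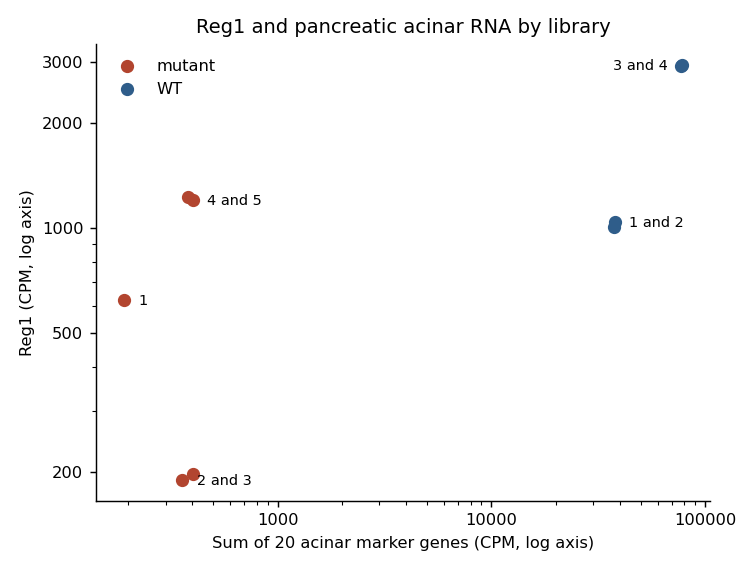
Reg1 level against the summed level of 20 pancreatic acinar marker genes in each library, both in CPM on log axes, with mutant libraries red and WT libraries blue. Mutant libraries have list sums of 191 to 404 CPM, mostly from Zg16, which is also on the goblet list. They span 190.1 to 1229 CPM of Reg1, and WT 3 and 4 are highest on both axes.

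Reg3b, Reg3a, Reg1 and Reg3g lie with Reg3d and Reg2 in 98.2 kb of chromosome 6, between 78370657 and 78468872 on GRCm38, and adjacent genes there had fold changes of opposite sign at several steps. Reg3d, which lies between Reg3b and Reg3a on the opposite strand, had 1.97, 2.96, 2.78, 1.65 and 1.73 CPM in mutants 1 to 5, and 16.9, 15.8, 35.9 and 37.7 CPM in WT 1 to 4. Its log2 fold change was -3.57 (SE 0.32, adjusted p = 2.9e-05; 0.00382 with pairs summed). Of the 5 other REG and SAA genes, 2 were tested and both, Reg2 and Reg3d, were called lower, as were 17.1% of all tested genes. Both were higher in WT 3 and 4 than in WT 1 and 2, as was Reg1.

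**Figure D3:**
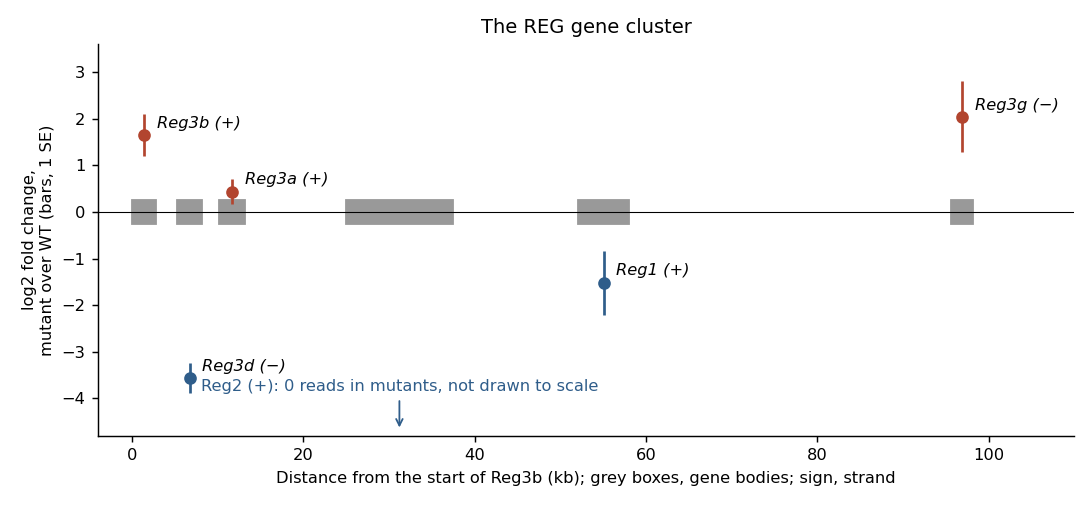
Log2 fold change, mutant over WT, with 1 SE, of the REG genes of chromosome 6 against distance from the Reg3b start in kb, with gene bodies as grey boxes and the strand in brackets. Reg3b and Reg3g at the ends of the cluster have the highest values (1.65 and 2.04), Reg3d is at -3.57, and Reg2, with 0 reads in mutants, is marked by an arrow without a value.

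Reg4, on chromosome 3 (98222156 to 98236748), gave the steadiest difference. It had 39.7, 48.7, 50.2, 32.2 and 30.0 CPM in mutants 1 to 5, and 115, 108, 79.7 and 78.5 CPM in WT 1 to 4. All mutant libraries were below all WT libraries. The means were 40.2 ± 9.21 CPM in mutants and 95.3 ± 18.9 CPM in WT (SD, n = 5 and 4), a log2 fold change of -1.25 (SE 0.18, adjusted p = 0.000484). The call held with pairs summed (adjusted p = 0.0158) and in every alternative run, with log2 fold changes of -1.48 to -0.98. Inside each genotype, Reg4 was higher in the close pair with more Reg3g.

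Of the cell types in which Reg4 is known, goblet markers were all lower in the same comparison and enteroendocrine markers only in part. All 12 goblet genes were called lower (10 with pairs summed), and their sum was 1051 to 2036 CPM in mutants and 7985 to 8270 CPM in WT. The goblet list holds Zg16, which is also on the acinar list. It also holds Klk1, which had 414, 413, 789 and 812 CPM in WT 1 to 4. Like the acinar sum, Klk1 was higher in WT 3 and 4, and the part of acinar RNA in the goblet values was not tested. Fcgbp, a mucus protein gene, had a log2 fold change of -2.29 (SE 0.17, adjusted p = 4.44e-06). Of 12 enteroendocrine genes, 4 were called lower and 0 higher (2 and 0 with pairs summed), with 199.9 to 277 CPM in mutants and 348 to 377 CPM in WT. Their median log2 fold change was -0.15. Over all tested genes, 32.5% were called and 17.1% were called lower (9.01% and 6.78% with pairs summed). Tph1, the serotonin synthesis gene of enterochromaffin cells, had a log2 fold change of -1.75 (SE 0.26, adjusted p = 0.000513). The part of these cell types in the Reg4 difference was not tested.

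Lypd8, on chromosome 11, was second to Reg3b per length in mutants and differed little. It had 1490.1, 1552, 1548, 1273 and 1255 CPM in mutants 1 to 5, and 1589, 1526, 966 and 975 CPM in WT 1 to 4. Again the mutant libraries lay near WT 1 and 2 or between the WT pairs. Its difference was 0.17 on the log2 scale (SE 0.16, adjusted p = 0.453), 0.55 without WT 1 and 2 (adjusted p = 0.00961) and -0.13 without WT 3 and 4 (adjusted p = 0.461). With pairs summed the adjusted p was 0.648.

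Per kilobase of transcript, the mean level in mutants was 3931 CPM for Reg3b, 1109 for Lypd8, 763 for Reg1, 493 for Reg3g, 129 for Reg3a, 39.3 for Reg4, 13.8 for Duoxa2, 13.6 for Duox2 and 2.49 for Nos2. In WT it was 2184 for Reg1, 1256 for Reg3b, 984 for Lypd8, 120.1 for Reg3g, 95.2 for Reg3a, 93.3 for Reg4, 5.01 for Duoxa2, 4.05 for Duox2 and 3.2 for Nos2. Neighbours in these orders, such as Lypd8 and Reg1 in mutants (SD of 115 and 568 CPM per kilobase), often lie within each other's spread.

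Duox2 and Duoxa2 lie head to head on chromosome 2, 734 bases apart, and varied by several fold within each genotype. Duox2 had 145, 126, 126, 18.1 and 19.1 CPM in mutants 1 to 5, and 43.4, 49.1, 5.19 and 6.08 CPM in WT 1 to 4. Duoxa2 had 29.1, 38.7, 35.5, 3.12 and 3.12 CPM in mutants 1 to 5, and 14.2, 15.6, 0.93 and 1.17 CPM in WT 1 to 4. For both genes, mutants 1 to 3 were highest, WT 1 and 2 came next, and mutants 4 and 5 lay below WT 1 and 2 but above WT 3 and 4. The log2 fold change was 1.73 for Duox2 (SE 0.94, adjusted p = 0.200) and 1.44 for Duoxa2 (SE 1.07, adjusted p = 0.345). Neither was called in any alternative run, and with pairs summed the adjusted p was 0.478 for Duox2 and 0.617 for Duoxa2. Leaving out a close pair took Duox2 over 0.91 to 3.94 and Duoxa2 over 0.54 to 4.37.

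The ratio of the oxidase to its maturation factor varied less between libraries than their levels. Duox2 had 4.99, 3.25, 3.55, 5.77 and 6.06 reads per read of Duoxa2 in mutants 1 to 5, and 3.05, 3.14, 5.45 and 5.1 in WT 1 to 4. The log2 ratio averaged 2.19 ± 0.41 in mutants and 2.01 ± 0.445 in WT (SD, n = 5 and 4). The difference was 0.18 (2-sided exact permutation over libraries, p = 0.413). With close pairs summed the difference was 0.197 (2-sided exact permutation over 3 mutant and 2 WT units, p = 0.6), again with too few units to decide. Per length the ratio ran from 0.807 to 1.51 in mutants and 0.758 to 1.36 in WT. Of Duoxa2's 50-base stretches, 41.1% also occur in Duoxa1, which overlaps it on the other strand, and the libraries do not mark strand. Duoxa1 itself had 2 to 18 reads in each mutant library and 2 to 7 in each WT library, and Duox1 had 1 to 7 and 1 to 6.

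Nos2, on chromosome 11, took yet another order. It had 14.8, 5.97, 6.97, 13.8 and 13.5 CPM in mutants 1 to 5, and 26.9, 24.5, 3.33 and 1.87 CPM in WT 1 to 4. The 5 mutant libraries lay between the WT pairs. Over all libraries the log2 fold change was -0.38 (SE 0.74, adjusted p = 0.737; 0.9 with pairs summed). It was called lower without WT 3 and 4 (-1.23, adjusted p = 0.0296) and called higher without WT 1 and 2 (2.08, adjusted p = 0.0114). Of 15 macrophage and dendritic genes, which can also carry Nos2, 12 were called lower and 1 higher (12 and 0 with pairs summed), with sums of 49.3 to 77.6 CPM in mutants and 307 to 350 CPM in WT. Over all tested genes, 17.1% were called lower and 15.4% higher (6.78% and 2.23% with pairs summed). The part of macrophages and dendritic cells in the Nos2 values was not tested.

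Saa1 was close to the detection limit in every library. It had 0, 5, 0, 2 and 0 reads in mutants 1 to 5, and 5, 3, 1 and 1 reads in WT 1 to 4. Both groups are near the 3 reads that set the floor, no fold is given, and a difference was not detectable at this depth. Saa2 and Saa4 had 0 reads throughout, and Saa3 had 7 reads in all mutant libraries and 29 in all WT libraries.

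**Figure D4:**
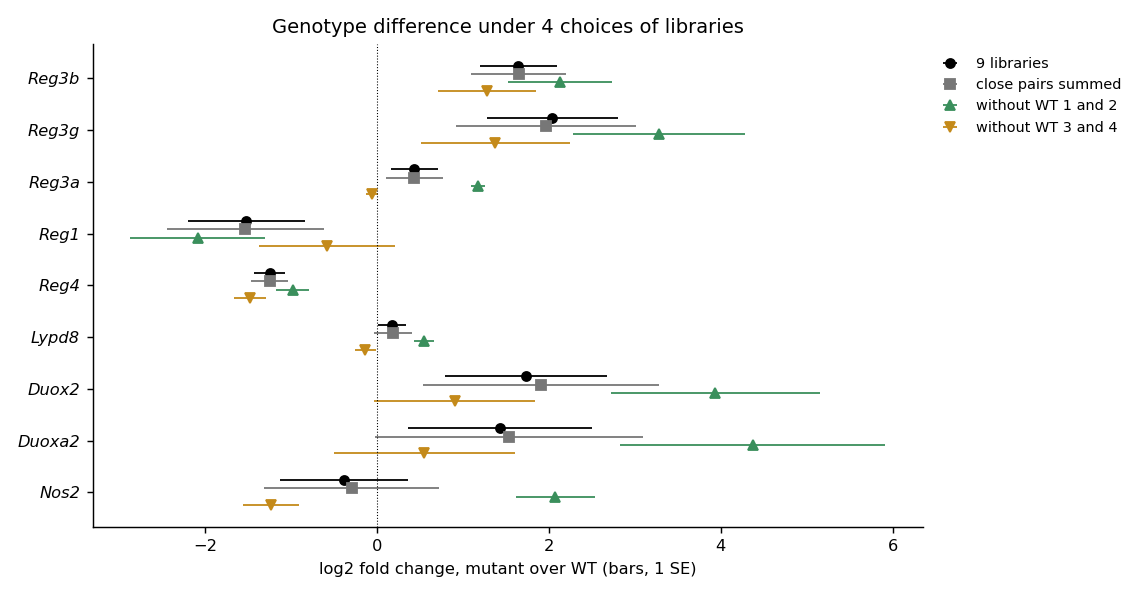
Log2 fold change, mutant over WT, with 1 SE, of the 9 tested genes over all 9 libraries, with close pairs summed, and without either WT pair. Reg4 stays below 0 throughout, Reg3b stays above 0, and Reg3a, Lypd8 and Nos2 change sign with the WT pair left out.

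All 9 tested genes varied more inside the genotypes than the median gene. The SD of log2(CPM + 1) within genotypes was above the median of all tested genes, 0.193, for all 9, and above the 90th percentile for 7. Duoxa2 ranked 5 of 15416 genes with 1.71, Duox2 6 with 1.57, Nos2 19 with 1.19, Reg3g 20 with 1.19 and Reg1 22 with 1.16. Reg3b followed at 167 with 0.735 and Reg3a at 855 with 0.459, while Reg4 (0.31) and Lypd8 (0.283) were lowest.

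Within each genotype, most of these genes were higher in the same close pair. The labels link no mutant pair to a WT pair, so which pairs are lined up below is a choice. A direction shared across genotypes follows from that choice. The level in mutants 2 and 3 over that in mutants 4 and 5 was 11.9 for Duoxa2, 6.77 for Duox2, 5.68 for Reg3g, 3.34 for Reg3b, 1.59 for Reg4 and 1.23 for Lypd8. The level in WT 1 and 2 over that in WT 3 and 4 was 14.2 for Duoxa2, 8.21 for Duox2, 3.73 for Reg3g, 1.8 for Reg3b, 1.41 for Reg4 and 1.6 for Lypd8. For Reg1 both ratios were under 1, at 0.159 in mutants and 0.351 in WT. Nos2 (0.475 in mutants, 9.86 in WT) and Reg3a (0.978 in mutants, 2.34 in WT) were under 1 in mutants and over 1 in WT. These gaps inside a genotype are larger than the genotype differences of Duox2 and Duoxa2.

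With genotype means removed, levels of log2(CPM + 1) over the 9 libraries ran together for several of the genes. Pearson's r was 0.994 for Duox2 with Duoxa2, 0.99 for Reg3g with Reg4, 0.965 for Reg3b with Reg3g and 0.946 for Duoxa2 with Reg3b. Reg1 ran against them, with r = -0.99 to Reg3g and -0.974 to Reg3b. Nos2 went with Reg3a (r = 0.935) and little with Reg3b (r = 0.149). These are descriptions: 8 of the 9 libraries form 4 close pairs, so few independent points stand behind each r, and they share depth and tissue makeup.

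**Figure D5:**
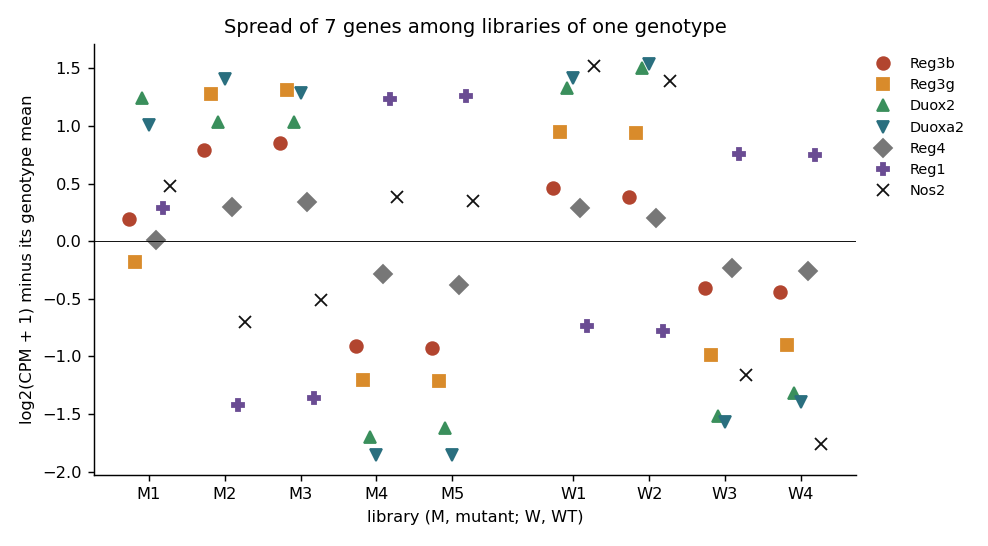
Deviation of log2(CPM + 1) from the genotype mean for 7 genes in each library, mutant libraries (M1 to M5) left of WT libraries (W1 to W4). Reg3b, Reg3g, Duox2 and Duoxa2 are high in M2, M3, W1 and W2 and low in M4, M5, W3 and W4, Reg1 is the reverse, and Nos2 follows neither.

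The genes most like each of them, by r over the same 9 libraries among 8273 genes, are given as a description. Elf3, an epithelial transcription factor, was nearest to Reg3g (r = 0.996) and to Reg4 (0.989). Gpx2, a glutathione peroxidase of the gut epithelium, was nearest to Reg3b (0.994), and the carbonic anhydrase gene Car2 to Reg1 (0.998). Slc36a1, an amino acid transporter gene, was nearest to Duox2 (0.995), Pmp22 to Duoxa2 (0.996), Susd2 to Lypd8 (0.996), Stt3b, an oligosaccharyltransferase subunit gene, to Reg3a (0.994) and Cmpk2 to Nos2 (0.995). Between 138 and 295 genes had an r over 0.9 to each of the 9, so no single neighbour stands apart.

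Genes of the pathways around these defence genes were described by 4 lists, whose counts stand beside a background of 32.5% of all tested genes called (15.4% higher, 17.1% lower), or 9.01% with pairs summed (2.23% higher, 6.78% lower). Of 20 genes of the IL-22, IL-17 and STAT3 axis, 14 were tested, 2 were called higher and 6 lower (1 and 1 with pairs summed). Their median log2 fold change was -0.10. Il10rb, a subunit of the IL-22 receptor, was higher at 0.61 (SE 0.10, adjusted p = 0.000896). The IL-22 receptor gene Il22ra1 went the other way. It had 45.7, 45.4, 46.1, 77.6 and 69.7 CPM in mutants 1 to 5, and 83.0, 87.1, 85.9 and 78.9 CPM in WT 1 to 4. Every mutant library was below every WT library, mutant 4 only narrowly. Ahr, the receptor for dietary and microbial ligands that sustains IL-22-producing cells, was lower at -0.78 (SE 0.09, adjusted p = 8.11e-05), as were the kinase Tyk2 (-0.35, SE 0.07, adjusted p = 0.0028) and the shared cytokine receptor subunit Il6st (-0.62, SE 0.13, adjusted p = 0.00376). With pairs summed Tyk2 (adjusted p = 0.104) and Il6st (0.0663) were no longer called. Il22 had 1 read over all 9 libraries. Transcript levels of Stat3 were 181 CPM in mutants and 182 CPM in WT on average (log2 fold change -0.01, adjusted p = 0.942).

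Of 16 genes for sensors of microbes and their signalling, 15 were tested, 1 was called higher and 5 lower (0 and 2 with pairs summed), with a median of -0.12, a share called that is near the background. Tlr9, a receptor for bacterial DNA, was lower at -3.14 (SE 0.33, adjusted p = 4.88e-05) and Nod1, a sensor of peptidoglycan, at -1.05 (SE 0.18, adjusted p = 0.00117). Tlr9 had only 3 to 6 reads per mutant library, near the floor of 3 reads, and 25 to 44 per WT library. The NF-kappaB subunit gene Nfkb1 was lower at -0.31 (SE 0.06, adjusted p = 0.00261), and Tnfaip3, an inhibitor of NF-kappaB signalling, was the gene called higher, at 0.32 (SE 0.09, adjusted p = 0.0147). Nfkb1 (adjusted p = 0.128) and Tnfaip3 (0.136) lost the call with pairs summed.

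Other oxidase and nitric oxide genes gave 1 higher and 2 lower calls among 9 tested of 12 (0 and 1 with pairs summed), a share called that is close to the background. Gpx2, which removes peroxides, was higher at 2.34 (SE 0.42, adjusted p = 0.00312; 0.0609 with pairs summed), with 516, 765, 789, 258 and 255 CPM in mutants 1 to 5, and 126, 119, 84.8 and 79.8 CPM in WT 1 to 4. Cybb, the phagocyte oxidase subunit gene, was lower at -3.01 (SE 0.22, adjusted p = 4.44e-06), and Arg1, an arginase that shares its substrate with NOS2, at -1.30 (SE 0.35, adjusted p = 0.0138; 0.0919 with pairs summed). Arg1 had only 5 to 17 reads per mutant library and 21 to 32 per WT library.

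Among 25 other epithelial antimicrobial genes, 20 were tested, 4 were called higher and 8 lower (1 and 5 with pairs summed), with a median of -0.01. Lyz1, the Paneth cell lysozyme, was lower at -4.61 (SE 0.36, adjusted p = 3.15e-05), Zg16, a goblet cell lectin, at -2.95 (SE 0.22, adjusted p = 6.99e-06), Itln1, an intelectin, at -2.74 (SE 0.39, adjusted p = 0.00106) and Pglyrp2, an amidase of peptidoglycan, at -2.27 (SE 0.34, adjusted p = 0.000506). Pglyrp2 had only 6 to 12 reads per mutant library and 27 to 62 per WT library. The summed level of the 25 genes was 11003 to 12772 CPM in mutants and 14931 to 15802 CPM in WT.

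Marker lists of further cell types are given beside a background of 32.5% of all tested genes called (15.4% higher, 17.1% lower). With pairs summed the background was 9.01% (2.23% higher, 6.78% lower). Of 11 Paneth cell genes, 9 were called lower and 1 higher (7 and 0 with pairs summed), with sums of 2428 to 3346 CPM in mutants and 3486 to 6160 CPM in WT. Guca2b, the gene called higher, made up most of the mutant sums, at 2166 to 3196 CPM against 1453 to 1656 CPM in WT. The sums therefore understate the drop of the genes called lower. Pnliprp2, also on the Paneth list, had 300.1, 301, 506 and 492 CPM in WT 1 to 4, higher in WT 3 and 4 as the acinar sum was. Of 14 enterocyte genes, 5 were called higher and 0 lower (0 and 0 with pairs summed), with sums of 42014 to 58869 CPM in mutants and 33249 to 41681 CPM in WT. Taking either direction, the enterocyte share called over 9 libraries is near the background. All 8 tested of 10 tuft cell genes were called higher, also with pairs summed, with 279 to 473 CPM in mutants and 107 to 137 CPM in WT. Of T and innate lymphoid genes, 9 of 13 tested were called lower, 5 with pairs summed, and the sum was 69.2 to 122 CPM in mutants and 146 to 165 CPM in WT. Of plasma and B cell genes, 7 of 8 tested were called lower, 4 with pairs summed, and the sum was 1694 to 4075 CPM in mutants and 8121 to 8616 CPM in WT. Of 11 neutrophil genes 2 were tested, and both, Mmp9 and Csf3r, were called lower, also with pairs summed. The neutrophil sum was 1.08 to 3.19 CPM in mutants and 12.5 to 16.4 CPM in WT, with Ngp and Ly6g at 0 reads in all libraries. Mmp9, a matrix protease gene not restricted to neutrophils, had a log2 fold change of -2.82 (SE 0.29, adjusted p = 3.88e-05). The part of these cell types in the levels of Reg3b and the other genes was not tested.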

How the data were processed

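Polyadenylated RNA of whole duodenum was sequenced from 5 mutant and 4 WT mice. Per the submitters' processing notes, reads were aligned or counted with the tools HISAT2 2.0.5 and featureCounts 1.5.0-p3. Those notes name both human and mouse builds, and the gene coordinates are those of GRCm38: of 54532 identifiers, 54495 were in GENCODE M21 and 53585 had the same start and end there. Duox2 is the one gene of the 10 whose end differs. The table the authors deposited holds raw counts for each gene, not normalized. All per-sample columns were used. With 16119639 to 24009157 counts per library, 3 reads correspond to at most 0.191 CPM on the scaled library sizes, and this covers counting error only.

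The test was edgeR 4.0.16's quasi-likelihood test in R 4.3.3, with TMM scaling, filterByExpr, robust dispersion and no covariate beside genotype. Adjusted p-values are Benjamini-Hochberg values over the 15416 genes that passed, and a gene is called under 0.05. Log2 fold changes are mutant over WT. Within-library ratios add 0.5 reads to each gene and were compared by 2-sided exact permutation of libraries. Alternatives used DESeq2 1.42.0, voom of limma 3.58.1, other scaling and filters, the mouse number as a block, summed close pairs or the pair as a random block, and left out each library or close pair. The steps were tested on simulated data. Both the genes described and the 15 lists beside them were chosen with earlier results of these data known. Text names all 10 genes, up to 4 called genes per pathway list by smallest p, up to 3 per cell type list, and the genes most alike in pattern. Ctrb1, Pnlip, Stat3, Il22, Il22ra1, Guca2b, Duox1, Duoxa1, Saa2, Saa3, Saa4, Ngp and Ly6g are list members named outside that rule, after their values were seen. Lists share members, such as Zg16 and Lyz1.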

Additional observations from a re-analysis of the deposited data

How the results depend on the processing

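Gene results and counts were recomputed in 24 alternatives, and the 2 within-library ratios in 11, where neither passed the threshold. Reg4 kept its call and direction in all of them. Against 1 gene of the 10 called higher (Reg3b) over 9 libraries, the number was 0 with no filter, 0 with pairs summed, 0 without WT 3 and 4, 0 without mutants 2 and 3, 2 by DESeq2, 2 with no robust dispersion, 2 under the random pair block, 2 without mutants 4 and 5, and 4 without WT 1 and 2. Leaving out single libraries gave 0 to 1. Against 1 called lower, 2 were called with the pair as a random block, without WT 3 and 4, or without mutants 4 and 5. Over all genes, 2369 were called higher and 2634 lower, 385 and 1173 with pairs summed, 1172 and 1644 under the random pair block, and 1451 higher without WT 3 and 4. Direction was reversed for Nos2, at 0.59 with quality weights, 0.058 with the replicate block, 0.19 with the pair as a random block, 2.08 without WT 1 and 2, and -0.74 to 0.14 without single libraries. Without WT 3 and 4 it was reversed for Reg3a (-0.0545) and Lypd8 (-0.13). The cause was not tested.

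Mice of the same number did not deviate together (r = -0.193 to 0.205 over genes, and 1 of 4 mutant mice correlated best with the WT mouse of its number). With the mouse number as a replicate block, 1738 genes were called higher and 2222 lower, and Reg3b (1.73, adjusted p = 0.00974) and Reg4 stayed called. Saa1 failed the expression filter and was tested only with no filter (-0.62, SE 1.04, adjusted p = 0.721).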

Other observations

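Some genes were looked at after the values above were seen, because they are known as epithelial response genes in the gut. Lcn2, a siderophore-binding protein gene, had 55, 111, 109, 4 and 8 reads in mutants 1 to 5, and 69, 56, 20 and 29 reads in WT 1 to 4. Its low libraries were those low in Duox2, and the log2 fold change was 0.55 (SE 0.80, adjusted p = 0.636). Socs3, a feedback inhibitor of STAT3, had 113, 110.4, 105, 36.5 and 37.3 CPM in mutants 1 to 5, and 47.5, 51.0, 35.0 and 31.9 CPM in WT 1 to 4 (log2 fold change 0.96, SE 0.41, adjusted p = 0.110). Every mutant library of Socs3 was above WT 3 and 4, and mutants 4 and 5 were below WT 1 and 2. Retnlb, a goblet cell antibacterial protein gene, had 29, 27, 26, 5 and 0 reads in mutants 1 to 5, and 13, 10, 2 and 3 reads in WT 1 to 4 (log2 fold change 1.47, SE 0.83, adjusted p = 0.203). Mutants 4 and 5 and WT 3 and 4 were again the low libraries.

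Elf3, nearest in pattern to Reg3g and Reg4, was itself called higher. It had 286, 312, 308, 267 and 267 CPM in mutants 1 to 5, and 205, 202, 180.3 and 182 CPM in WT 1 to 4, and the groups did not overlap. Its log2 fold change was 0.58 (SE 0.08, adjusted p = 0.000236; 0.0323 with pairs summed).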
